A study of Danio rerio with 6 samples.

Results

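The genes described here encode the protein subunits of SF3A and SF3B, the subcomplexes that make up much of the U2 small nuclear ribonucleoprotein (snRNP), together with the branch point binding protein SF1. The SF3A genes are sf3a1, sf3a2 and sf3a3, and the SF3B genes are sf3b1 to sf3b6. Genes were chosen by Ensembl identifier, 10 of the 32105 genes in the count table, and all 10 were found there and passed the filter on low counts. Levels in the mutant and wildtype libraries and the change between them were part of that choice, so the members' differences between genotypes are a description here, and the count of members that a fit over all genes calls is given only beside the share of all genes called. The gene for the remaining SF3B subunit, phf5a, was outside the chosen set and is described with the other U2 genes.

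RNA was measured in cells carrying a cd41 fluorescent reporter, isolated from zebrafish embryos at 40 hours post fertilization, in 3 ddx41 mutant libraries and 3 wildtype libraries. The labels call the second genotype wildtype, while the series' design speaks of siblings of the mutants. The labels name neither the ddx41 allele nor the number of embryos per library, and nothing says that libraries came from separate clutches, so the p-values below measure the spread between these libraries, which may be technical. Cd41 is the integrin chain gene itga2b, active in thrombocytes and in blood progenitors, and ddx41 encodes a DEAD-box RNA helicase.

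In the first steps of splicing, SF1 binds the branch point of an intron and the U2AF proteins bind the tract beside its 3′ end. SF1 then gives way to the U2 snRNP, whose SF3B subunits clamp the pairing of U2 RNA with the branch point while SF3A ties SF3B to the rest of the particle. SF3B also serves the U12-type spliceosome, which removes a minor class of introns. In human blood, SF3B1 is among the splicing factor genes often mutated in myelodysplastic syndromes.

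Gene counts totalled 14577735 to 15912260 in the mutant libraries and 17001423 to 17639699 in the wildtype libraries, and 21.3% to 30.7% of them fell on the mitochondrial genome. Itga2b itself was present in all libraries, at 2.62, 4.33 and 6.44 CPM in the mutants and 3.22, 1.18 and 1.60 CPM in the wildtypes. CPM here are gene counts scaled to a common library size after TMM normalization. Ddx41 itself was not analysed here, so no check of the genotype labels was made on it. Markers of blood cell types also differed between the genotypes, with values given further on. In bulk libraries such as these, fewer cells of a type and less RNA per cell cannot be told apart.

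Taken over the 10 genes, the mutant libraries held more SF3A, SF3B and SF1 transcript than the wildtypes. Counts on the 10 genes summed to 887, 1091 and 1081 CPM in mutant replicates 1, 2 and 3, and to 408, 453 and 391 CPM in the wildtype replicates. All 10 log2 fold changes of mutant over wildtype were positive, with a median of 1.16, a 2.24-fold difference, against a median of 0.02 over the 18722 genes tested. The sizes differed widely between subunits, from 5.57-fold for sf3a2 to 1.32-fold for sf1. In CPM, the mutant and wildtype libraries of 9 of the 10 genes did not overlap, the mutants being higher, as was so for 15.3% of all tested genes. By edgeR's quasi-likelihood test with an adjusted p below 0.05, 6 of the 10 were called higher and none lower, against 3.34% of all genes higher and 1.99% lower. DESeq2 and limma voom each called 8 of the 10 higher, against 6.93% and 7.8% of all genes. Across all genes 625 were higher and 373 lower, which became 463 and 572 when libraries were scaled by total counts alone. Since this contrast entered the choice of genes, nothing is read from these counts.

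**Figure D1:**
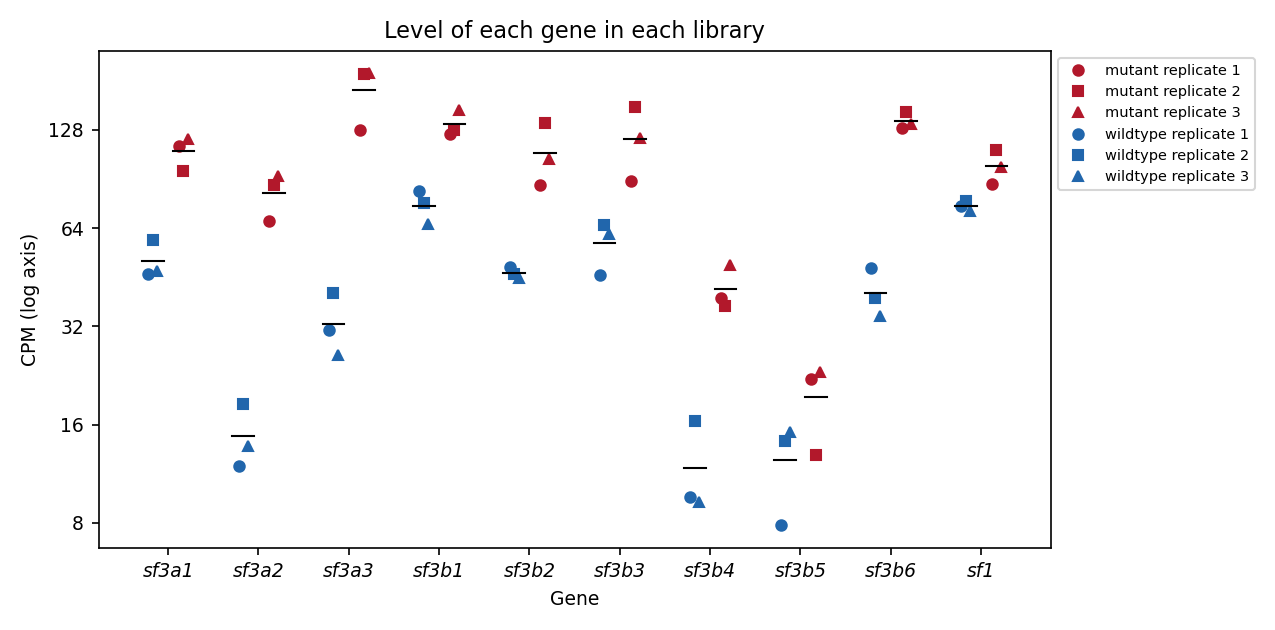
Level of each of the 10 genes in each library, in CPM on a log axis. Red symbols are mutant libraries, blue symbols are wildtype libraries, shapes mark the replicate number and short lines the means of 3 libraries. The colours are apart for every gene except sf3b5, where mutant replicate 2 lies at 12.9 CPM among the wildtypes.

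SF3A has 3 subunits, and they did not differ alike between the genotypes. Sf3a2 (ENSDARG00000021107, chromosome 2, 57710669 to 57723075, minus strand, GRCz10), the zinc finger subunit of SF3A, stood at 67.6, 86.8 and 92.2 CPM in the mutant replicates and at 11.99, 18.6 and 13.8 CPM in the wildtypes. Its lowest mutant library was thus far above its highest wildtype library. The means were 82.2 ± 13.0 and 14.8 ± 3.40 CPM (SD, n = 3 each), with a log2 fold change of 2.48 ± 0.29 (SE).

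Sf3a3 (ENSDARG00000100114, chromosome 19, 17388152 to 17400633, minus strand), which encodes another zinc finger subunit, showed a difference of similar size. Its levels were 128, 190 and 191 CPM in the mutants and 31.2, 40.4 and 26.2 CPM in the wildtypes. Mutant replicate 1 was the lowest mutant library for both sf3a2 and sf3a3, and wildtype replicate 2 the highest wildtype library for both. The log2 fold change of sf3a3 was 2.38 ± 0.29 (SE), a 5.20-fold difference.

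Sf3a1 (ENSDARG00000041887, chromosome 8, 36522382 to 36537802, plus strand), encodes the SF3A subunit with SURP domains, which hold the complex together. It stood at 114, 96.0 and 120 CPM in the mutants and at 46.4, 59.1 and 47.3 CPM in the wildtypes. The genotypes did not overlap, but the log2 fold change of 1.11 ± 0.24 (SE) was a 2.16-fold difference, less than that of its partners. Within a library, the ratio of sf3a3 to sf3a1, each per length of transcript (TPM), was 1.49, 2.63 and 2.11 in the mutants and 0.895, 0.910 and 0.737 in the wildtypes. The ratio of sf3a2 to sf3a1 was likewise 1.08 to 1.64 in the mutants and 0.469 to 0.570 in the wildtypes. The ratio of sf3a3 to sf3a2, by contrast, overlapped between genotypes, at 1.39 to 1.60 and 1.40 to 1.91.

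Among the SF3B genes of the set, which leaves out phf5a, sf3b4 and sf3b6 had the largest differences. Sf3b4 (ENSDARG00000018574, chromosome 19, 7505422 to 7511933, plus strand) encodes a protein with RNA recognition motifs that contacts the intron upstream of the branch point. It was at 39.1, 37.0 and 49.3 CPM in the mutants and at 9.61, 16.4 and 9.26 CPM in the wildtypes. Wildtype replicate 2 stood apart from the other wildtypes yet remained below every mutant library. The log2 fold change was 1.83 ± 0.33 (SE), a 3.56-fold difference.

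Sf3b6 (ENSDARG00000009753, chromosome 20), also known as p14, encodes a small protein that sits against SF3B1 near the branch point adenosine. Its levels were tightly grouped in the mutants, at 130, 145 and 133 CPM, and were 48.3, 39.0 and 34.3 CPM in the wildtypes. The log2 fold change was 1.75 ± 0.24 (SE), a 3.36-fold difference. Sf3b2 (ENSDARG00000018049, chromosome 7), which encodes the partner of SF3B4, varied more among the mutants, at 86.8, 134 and 105 CPM, while its wildtype libraries lay close together at 48.6, 46.4 and 45.2 CPM. Its log2 fold change was 1.22 ± 0.25 (SE).

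The genes of the large scaffold proteins, sf3b1 and sf3b3, differed less than sf3b4 and sf3b6. Sf3b1 (ENSDARG00000056138, chromosome 9, 32350877 to 32366371, minus strand) encodes the HEAT repeat protein that closes around the branch point helix. It had 124, 128 and 148 CPM in the mutants and 83.0, 76.2 and 66.0 CPM in the wildtypes. The libraries did not overlap, at a log2 fold change of 0.83 ± 0.23 (SE), a 1.78-fold difference. Sf3b3 (ENSDARG00000103553, chromosome 18), whose product is a beta-propeller protein that holds SF3B1, had 89.0, 150 and 121 CPM in the mutants and 46.0, 65.3 and 61.5 CPM in the wildtypes. Its log2 fold change was 1.06 ± 0.28 (SE).

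Sf3b5 (ENSDARG00000016855, chromosome 13), the gene of the smallest SF3B subunit, had 149 to 363 counts per library and the only overlap between genotypes in CPM. It was at 22.1, 12.9 and 23.2 CPM in the mutants and at 7.87, 14.3 and 15.2 CPM in the wildtypes. The log2 fold change of 0.64 ± 0.38 (SE) had the largest error of the 10. Sf1 (ENSDARG00000008188, chromosome 7), whose protein leaves before U2 settles on the branch point, was at 87.6, 111 and 98.8 CPM in the mutants and at 74.7, 77.8 and 72.3 CPM in the wildtypes. These ranges lay close but did not overlap, and the log2 fold change of 0.40 ± 0.22 (SE) was the smallest of the 10. In TPM the genotypes did overlap for sf1, at 39.0, 55.7 and 52.4 in the mutants and 44.7, 39.2 and 45.7 in the wildtypes.

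**Figure D2:**
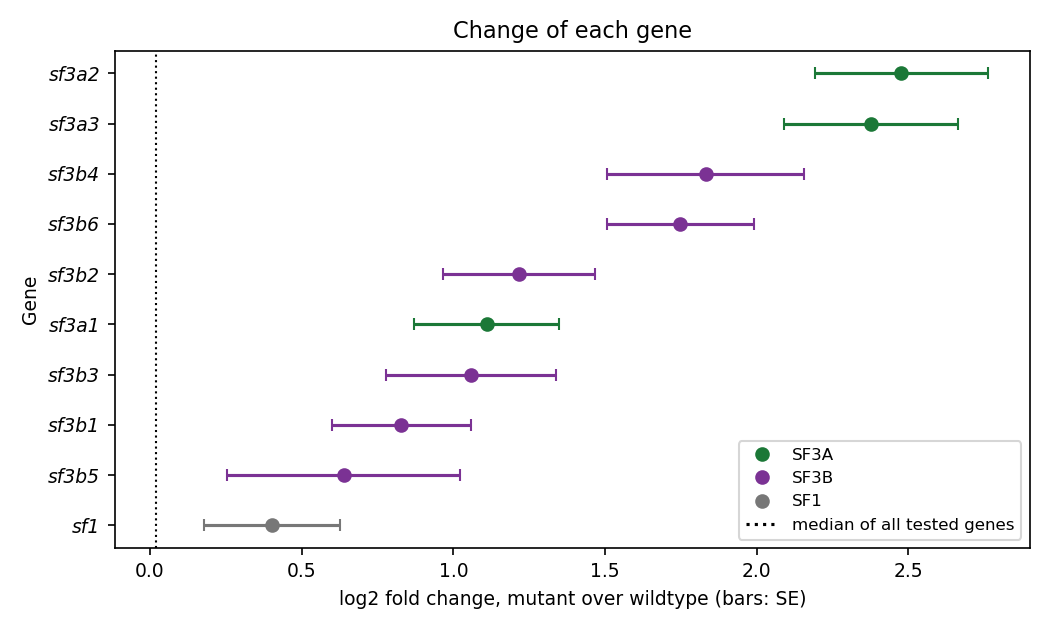
Log2 fold change of mutant over wildtype for each gene, in order of size, with bars for the standard error of the edgeR fit on 3 and 3 libraries. Green marks SF3A, purple SF3B, grey SF1, and the dotted line the median of all tested genes. Sf3a2 and sf3a3 lie at 2.48 and 2.38, apart from sf3a1 at 1.11, and sf1 lies lowest at 0.40.

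Fold changes were also computed with each library left out in turn. That of sf3a2 ran from 2.35 to 2.67 on the log2 scale, that of sf3a3 from 2.24 to 2.55, that of sf3a1 from 1.05 to 1.22 and that of sf3b4 from 1.68 to 2.14. Sf3b1 lay between 0.74 and 0.91 and sf3b3 between 0.86 and 1.22, and sf3b5 between 0.39 and 0.86. All 10 remained positive in each of these fits. The count of members called was 2 to 7 over the same fits, in which the count of genes called higher over the whole table ran from 51 to 1135. It was 3 without mutant replicate 2, mutant replicate 3 or else wildtype replicate 3, and 2 with wildtype replicate 2 left out.

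No exon of the 10 genes overlapped an exon of another annotated gene, so overlap did not divide their counts. The name table gives each symbol to 1 identifier. It names 26269 of the 32105 genes, so a copy without a name or under another symbol would not have been seen. Ccdc157 starts 86 bases from the start of sf3a1 on the other strand and was below the filter.

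Levels of different subunits can be set side by side only per length, which TPM gives. In the wildtypes the 10 genes lay within a narrow span, from 53.0 ± 10.9 TPM for sf3b6 (SD, n = 3) down to 14.3 ± 3.07 TPM for sf3b4. Sf1 came second at 43.2 ± 3.50 TPM, followed by sf3b5, sf3b2, sf3a1, sf3b1, sf3a3 and sf3b3 at means of 38.3 to 21.3 TPM, and then by sf3a2 at 14.4 ± 1.93 TPM. Neighbours in this order overlapped in their libraries, except sf3b3, which was above sf3a2 in every wildtype library.

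In the mutants the order was different. Sf3b6 remained first at 152 ± 18.7 TPM, and no other gene's libraries reached its range. Sf3a3 stood at 106 ± 30.3 TPM in place 2 against place 7 in the wildtypes, and sf3a2 at 70.2 ± 16.7 TPM in place 3 against place 9. Sf1 stood at 49.0 ± 8.85 TPM in place 7 against place 2. Sf3b3 was last at 38.4 ± 11.8 TPM. From sf3a3 downward, neighbours overlapped in their libraries.

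The share of each gene in the summed TPM of the 10 shows the change in proportion without the library size. Sf3a3 made up 13.4%, 17.1% and 16.8% of the sum in the mutants and 8.09%, 9.13% and 6.83% in the wildtypes. Sf3a2 made up 10.5% ± 0.727 and 4.95% ± 0.743 (SD, n = 3 each). These were the genes whose share was higher in every mutant library.

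Sf1 made up 7.30%, 7.95% and 6.91% of the sum in the mutants and 15.4%, 14.0% and 14.9% in the wildtypes. The share of sf3b1 was also lower in each mutant library, although its level was higher, at 6.12% ± 0.40 and 9.10% ± 1.21, and so was that of sf3a1, at 7.82% ± 1.24 and 9.44% ± 0.521 (mutants and wildtypes, SD, n = 3 each). For sf3a1 the gap was narrow, with mutant replicate 1 at 8.99% and wildtype replicate 1 at 9.04%. The shares of the other 5 genes overlapped between genotypes. Sf3b5 varied most among the wildtypes, from 8.64% to 16.8%. In sums over the 3 SF3A genes and the 6 SF3B genes of the set, SF3A stood at 0.529, 0.595 and 0.626 of SF3B in the mutants. The ratio was 0.338, 0.407 and 0.327 in the wildtypes. Phf5a was not part of the SF3B sum, so the ratio is not that of the whole complexes.

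**Figure D3:**
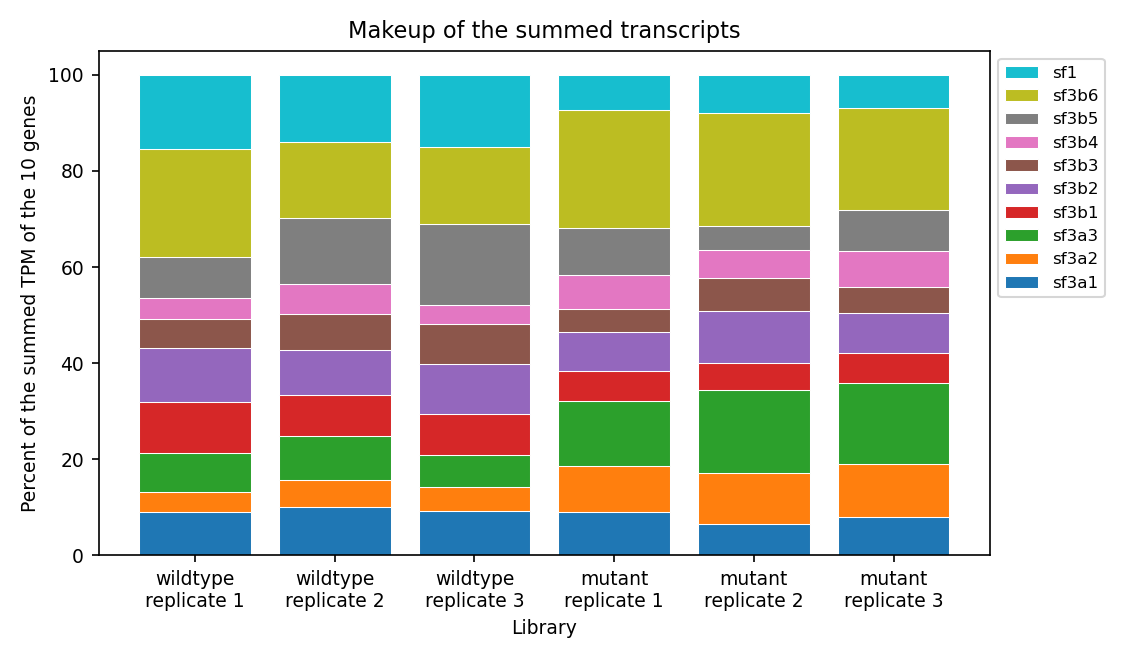
Makeup of the summed TPM of the 10 genes in each library, in percent, as stacked bars from 0 to 100. The sf1 segment is 14.0% to 15.4% in the wildtype libraries and 6.91% to 7.95% in the mutants, while the sf3a2 and sf3a3 segments are larger in each mutant library.

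Exonic lengths of the 10 genes ran from 564 bases for sf3b5 to 4900 bases for sf3b1. Across the 10 genes, the Spearman correlation of length with log2 fold change was -0.35, and across all 18722 tested genes it was -0.10. Genes are not independent replicates, and the same libraries underlie both values.

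To place these genes among their partners, the other genes of U2 and of branch point recognition were compared in the same fit, from a list drawn up by function, though with earlier results of these data known. Of 18 tested, 6 were higher in the mutants, 1 was lower and 11 were not called. The median log2 fold change was 0.70, against 0.02 over all genes. The largest difference was that of htatsf1, which in human cells encodes a U2 protein that binds SF3B1 and leaves as the branch point is engaged. It was at 122, 156 and 130 CPM in the mutants and at 18.3, 16.3 and 16.3 CPM in the wildtypes, an 8.03-fold difference (edgeR adjusted p = 0.00225). It passed without any 1 library (adjusted p up to 0.032).

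Phf5a, the gene of the remaining SF3B subunit, whose product forms the branch point pocket together with SF3B1, was 6.06-fold higher. Its levels were 31.8, 55.7 and 59.8 CPM in the mutants and 5.02, 8.75 and 10.5 CPM in the wildtypes (edgeR adjusted p = 0.0109, range over its alternatives 4.79e-08 to 0.0781). It did not pass without mutant replicate 3 (adjusted p = 0.0524) or without wildtype replicate 2 (adjusted p = 0.0781). Smndc1, which encodes a Tudor domain splicing factor, was 2.68-fold higher (adjusted p = 0.0151). Ddx42, which encodes a helicase that binds SF3B1, was 2.89-fold higher (adjusted p = 0.0169).

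The other genes that passed are named after their values were seen. Snrpa1, for the U2 protein A′, was 3.43-fold higher (edgeR adjusted p = 0.0178), and dhx15, for a helicase that takes spliceosomes apart, was 2.27-fold higher (adjusted p = 0.0307). Dnajc8, which encodes a J domain protein found in spliceosomes, was lower, with mutant libraries at 8.82 ± 0.840 CPM and wildtype libraries at 21.8 ± 2.04 CPM (SD, n = 3 each; edgeR adjusted p = 0.0407). The genes for the U2AF proteins that bind next to SF1 were not called, with log2 fold changes of 0.48 ± 0.29 (SE) for u2af1 and 0.71 ± 0.30 and 0.19 ± 0.25 for the genes that share the symbol U2AF2. With mutant replicate 2 or wildtype replicate 3 left out, 2 of these genes passed as higher, and with mutant replicate 3 or wildtype replicate 2 left out, 1 did. With 1 library left out, dnajc8 passed in the fit that lacked mutant replicate 1 and in none of the other 5 (adjusted p 0.0602 to 0.16).

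Other particles of the spliceosome gave the following values in the same fit, side by side and untested against each other. All 8 genes of the Sm ring, the core shared by U1, U2, U4 and U5, were higher, with a median log2 fold change of 2.21, led by snrpd2 at 7.45-fold (edgeR adjusted p = 0.00225). Of 15 genes of the U4/U6.U5 tri-snRNP, 10 were higher and none lower, with a median of 2.36. None of the 3 U1 protein genes was called by edgeR, at log2 fold changes of 0.37 to 0.42, and none had an unadjusted p below 0.05 or was called by DESeq2 or limma voom. Of 8 genes of the U11/U12 particle, which shares SF3B with U2, zmat5 was higher at 4.90-fold (adjusted p = 0.0169) and 7 were not called, with a median of 0.40. Of the Sm ring genes, 4 passed when mutant replicate 2, mutant replicate 3 or wildtype replicate 2 was left out, and 5 when wildtype replicate 3 was. Zmat5 missed the threshold when mutant replicate 2 or wildtype replicate 2 or 3 was left out (adjusted p = 0.058 to 0.0983).

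**Figure D4:**
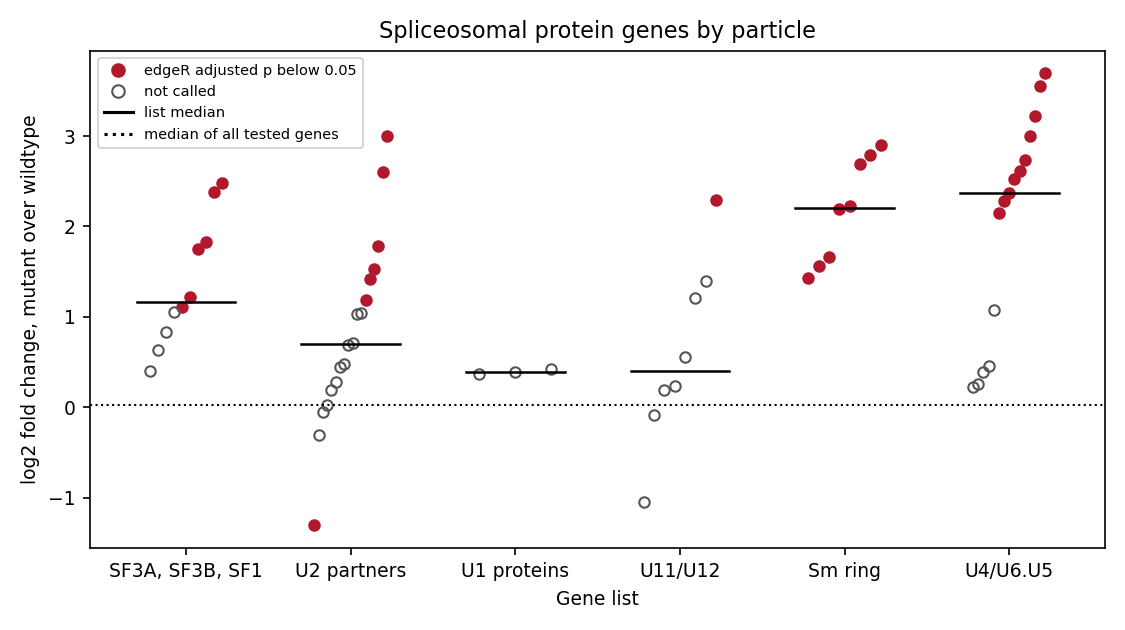
Log2 fold change of mutant over wildtype for each tested gene of 6 lists of spliceosomal proteins. Filled red points passed edgeR's test at an adjusted p below 0.05, open points did not, bars are list medians and the dotted line is the median of all tested genes. The medians are 1.16 for SF3A, SF3B and SF1, 0.70 for the U2 partners, 0.39 for U1, 0.40 for U11/U12, 2.21 for the Sm ring and 2.36 for U4/U6.U5.

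For likeness of pattern over the 6 libraries, only tested genes with a symbol were considered. Outside the set, those nearest to the mean of the 10 were one of the genes with the symbol SNRPD3 (ENSDARG00000076283), AFG3L2, TIMM21, nlrc3l1 and DNAJC9. Their root mean square differences from that mean profile, on centred log2 CPM, were 0.08, 0.08, 0.10, 0.10 and 0.10. The 10 genes themselves lay at 0.18 for sf3a1 to 0.57 for sf3a2. The mean profile on that scale was 0.54, 0.71 and 0.80 in the mutant replicates and -0.79, -0.49 and -0.76 in the wildtypes.

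Markers of cell types moved with genotype in the same libraries. Of 16 erythroid genes 14 were higher in the mutants, and the list summed to 11191 to 35269 CPM in mutants and 619 to 4354 CPM in wildtypes. Of 16 tested myeloid genes 3 were lower, and the 17 in the table summed to 9041 to 12441 CPM in mutants and 16201 to 32060 CPM in wildtypes. Several of the myeloid genes share the symbol MFAP4, among them ENSDARG00000090783, which was called lower. No gene of either list was at 0 in any library. Single genes weighed heavily in both sums. Lyz made up most of the myeloid sum, at 7173 to 10424 CPM in mutants and 12891 to 26511 CPM in wildtypes, and was not called. Hbbe3 and hbae3 were the largest parts of the erythroid sum. The number of calls in both lists changed when 1 library was left out. So did the number over all genes, of which 51 to 1135 were then called higher. Erythroid genes called higher were 3 when mutant replicate 2 or 3 was left out, 1 for wildtype replicate 2 and 4 for wildtype replicate 3. Myeloid genes called lower were 0 when mutant replicate 2, mutant replicate 3 or wildtype replicate 2 was left out, 1 for wildtype replicate 3, 5 for wildtype replicate 1 and 7 for mutant replicate 1. Thrombocyte markers summed to 393 to 779 and 159 to 389 CPM, with 5 of 8 higher, and stem and progenitor markers to 313 to 510 and 236 to 505 CPM, with 1 of 10 higher. Endothelial markers, with 1 of 8 higher and 1 lower, summed to 42.1 to 111 and 52.5 to 90.5 CPM, and lyve1b was at 0 in at least 1 library. Of 8 tested lens and neural markers 4 were higher and 3 lower. The 4 higher were the lens genes cryba1b, crybb1, crygm2d13 and lim2.3, and the 3 lower were the neural genes neurod1, vsx1 and elavl3. Elavl4, also neural, was not called, at a log2 fold change of -2.63. The lens and neural list together summed to 59.1 to 152 and 88.4 to 380 CPM, with gap43 at 0 in all libraries and cryaa, crygm2d13, lim2.3 and vsx1 at 0 in at least 1. With 1 library left out, calls in these lists ran from 0 to 5 higher for thrombocyte, 0 to 2 for stem and progenitor, 0 to 1 for endothelial and 1 to 4 for lens and neural markers. Calls of lower genes ran from 0 to 1 for the stem and progenitor and for the endothelial list, and from 0 to 3 for the lens and neural list.

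Within the mutants, the erythroid sum and the sum of the 10 genes ran in the same order in CPM. Mutant replicates 1, 3 and 2 had 11191, 33135 and 35269 CPM of erythroid transcript and 887, 1081 and 1091 CPM of the 10 genes. Within the wildtypes they did not. Wildtype replicates 1, 2 and 3 had 619, 2938 and 4354 CPM of erythroid transcript and 408, 453 and 391 CPM of the 10 genes. In TPM the sum of the 10 genes was 700 in mutant replicate 2 and 758 in mutant replicate 3, the reverse of their order in CPM. The part of the cell mix in the differences of the SF3A and SF3B genes was not tested.

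**Figure D5:**
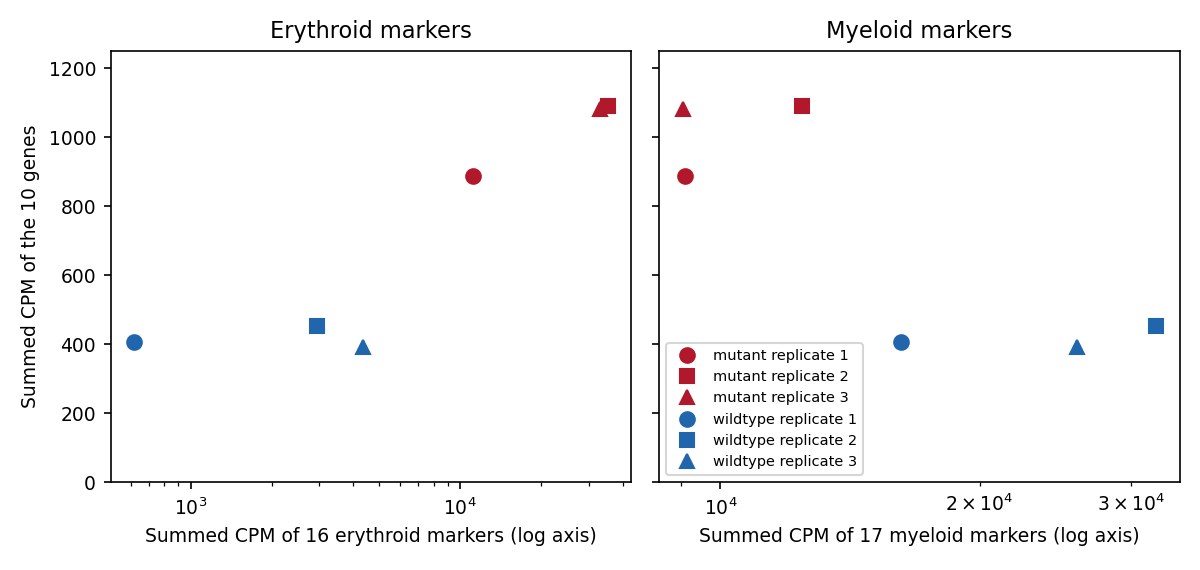
Summed CPM of the 10 genes on the vertical axis against the summed CPM of 16 erythroid markers (left) and 17 myeloid markers (right), on log horizontal axes, 1 point per library. The mutant libraries lie at 887 to 1091 CPM and the wildtypes at 391 to 453 CPM, and the genotypes are apart on both marker axes.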

How the data were processed

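The authors deposited raw whole-number counts of paired-end fragments per gene in 6 libraries. Per the file headers, they counted with featureCounts 1.5.0-p1 on the Ensembl release 85 annotation of GRCz10, with both mates mapped, chimeric pairs left out and no strand option. Per the submitters' processing notes, STAR 2.4.2a, Cufflinks 2.2.1, Trim Galore, Picard and DESeq2 were used, with no role given. Without strand, reads of antisense transcripts cannot be told apart.

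In R 4.3.3, edgeR 4.0.16 was run on the whole table with TMM scaling, filterByExpr (minimum count 10, minimum total 15), genotype as the only term, its two-sided quasi-likelihood test and p-values adjusted by Benjamini-Hochberg over 18722 genes. Each standard error was taken as log2 fold change over √F. TPM were computed from counts and the deposited gene lengths. The list of other U2 genes, the particle lists and the marker lists were matched by symbol, and 20 of 143 entries, mostly second names of paralogues, were not matched. Alternatives were other scalings and filters, DESeq2 1.42.0, limma 3.58.1 (voom), a replicate block, mitochondrial genes left out, and each library left out (for the marker lists, added after seeing the data). The planned search of promoters for motifs was not run, since no sequence was used here.

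The members and lists were chosen with earlier results of these data known. Named were the 10 members, up to 4 genes of smallest p per particle list and the 5 nearest patterns among genes with a symbol, with later additions marked. Markers are given as lists, and a few of them are named for their level or direction. On simulated counts for 18722 genes with 200 changed, edgeR found 0% of 67 changed 2-fold, 35.8% of 67 at 4-fold and 51.5% of 66 at 8-fold, and 4.92% of its 61 calls were unchanged genes. Of DESeq2's 150 calls 37.3% were unchanged genes. The simulation changed fewer genes than the 625 called higher in the data, so its rates need not hold for them. No pair of libraries agreed within counting noise (chi-square per degree of freedom at least 18.3).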

Additional observations from a re-analysis of the deposited data

How the results depend on the processing

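Of the members and the list genes followed through the alternatives, none had a log2 fold change that changed sign. The list genes followed were those of smallest p in their lists, which made a change of sign unlikely, so nothing is read from it. The other genes of those lists, the U2AF genes among them, were not followed in this way. Neither were single genes of the thrombocyte, stem and progenitor, endothelial, and lens and neural lists. All 10 members kept a positive log2 fold change in all fits. Genes higher and lower numbered 625 and 373, against 1297 and 1168 by DESeq2 and 1460 and 1352 by limma voom. Total counts without scaling factors called 463 higher and 572 lower, turning the balance of the calls, and shifted the median of all genes to -0.12, and the members' median was then 1.04. Leaving out 1 library gave 51 to 1135 genes higher and 11 to 832 lower, 2 to 7 members, 1 to 6 U2 partner genes higher and 0 to 1 lower, 4 to 8 Sm ring genes and 0 to 1 U11/U12 genes. Limma voom called 2 U11/U12 genes higher. Of the shares in the summed TPM, 5 did not overlap between genotypes, and 5 to 8 did not when 1 library was left out, 8 of them without mutant replicate 2 or without wildtype replicate 1. Leaving out a library can only narrow a range, so that count could not fall, and nothing is read from it. The members called at first were sf3a1, sf3a2, sf3a3, sf3b2, sf3b4 and sf3b6. Of these, sf3a2 and sf3a3 were called under every alternative. Sf3b2 lost its call under 6 alternatives, sf3a1 under 5, sf3b4 under 4 and sf3b6 under 1. Of the members not called at first, sf3b1 was called by DESeq2 and limma voom, sf3b3 by these, by the replicate block and without mutant replicate 1, and sf3b5 and sf1 under no alternative.

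The replicate number as a block gave 917 genes higher, 653 genes lower and 7 members higher, sf3b3 among them. The deviations of same-numbered libraries correlated at 0.22, 0.16 and 0.09, and 6 of 6 libraries correlated best with their own number. These 6 matches were read from the same correlations, so they are not independent of each other. The labels do not say what equal numbers share. Whether they mark pairs was not settled, and the main fit left the libraries unpaired. The fewest counts behind a member were 149, for sf3b5 in wildtype replicate 1.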
